A study of Mus musculus with 9 samples.

Results

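Chemokines are small secreted or membrane-bound proteins that call leukocytes into tissue, and 10 genes for such ligands are described here across 3 genotypes of mouse microglia: Ccl2, Ccl3, Ccl4, Ccl6, Ccl9, Ccl12, Cxcl2, Cxcl10, Cxcl14 and Cxcl16. They were found by symbol among the 18571 genes of the deposited table. All 10 passed the filter on low counts, which left 14696 genes to test. RNA came from CD45-immunopanned microglia of cortex and hippocampus of C57BL/6J mice at 9 months of age, with 3 libraries a genotype. The WT group is wild type. The APP/PS1 group carries human amyloid transgenes and develops amyloid plaques. The last group, called the knockout here and Cx43 cKO in the plots, joins APP/PS1 with Cx3cr1-CreER and Cx43-flox/flox. In it a tamoxifen-inducible Cre recombinase under the Cx3cr1 promoter, which is active in microglia and other Cx3cr1-expressing myeloid cells, deletes Cx43, a gap-junction protein encoded by Gja1. Per the labels, tamoxifen was given by gavage at 0.1 mg/g on 5 days at 8 months in all 3 genotypes. Neither control genotype is described as carrying Cre or the floxed allele, and whether a library is 1 mouse or a pool is not given. The p-values therefore measure only the spread between these libraries, which may be technical.

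Libraries held 18907681 to 19565354 estimated counts. Gja1 was 33.6 ± 1.77 CPM (counts relative to the library size, scaled with TMM factors) in WT, 39.7 ± 2.72 in APP/PS1 and 26.9 ± 1.42 in the knockout (SD, n = 3), and it was lower in the knockout than in APP/PS1 (log2 change -0.56, SE 0.06, edgeR adjusted p = 7.95e-09) but not absent. The table gives whole genes, so reads over the floxed part alone are not separated in these counts. The Y-linked gene Ddx3y had 4137 to 4538 counts in the 6 WT and APP/PS1 libraries and 0, 1 and 2 counts in the knockout libraries. Sex and knockout therefore cannot be told apart in any comparison with the knockout group. Summed CPM of 10 microglial markers ranged from 19684 to 20040 in WT, from 22598 to 22998 in APP/PS1 and from 19689 to 19967 in the knockout. By edgeR's test 6 of these 10 were higher and 4 lower in the knockout than in WT, so the sums hide moves in both directions. Summed CPM of 12 neutrophil markers was 3061 to 3075, 926 to 943 and 8913 to 9040 in WT, APP/PS1 and the knockout, and of 8 monocyte markers 734 to 754, 309 to 332 and 970 to 983. No marker of these lists was at 0 in every library of a group.

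Chemokine ligands are grouped by the spacing of their first cysteines into CC and CXC families, and they act on G-protein-coupled receptors on leukocytes. Ccl2, Ccl7 and Ccl12 act mainly through Ccr2 and call monocytes. Ccl3 and Ccl4 call monocytes, macrophages and T cells, and Ccl3 acts in part through Ccr1, of which Ccl6 and Ccl9 are rodent ligands. Cxcl2 calls neutrophils through Cxcr2, Cxcl10 is an interferon-induced ligand of Cxcr3, Cxcl14 is a mostly homeostatic CXC ligand, and Cxcl16 is made as a transmembrane protein that binds Cxcr6. Microglia around amyloid plaques are known to express Ccl3, Ccl4 and Ccl6. Ccl3, Ccl4 and Cxcl2 are also known to be induced in microglia by tissue dissociation.

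Compared per transcript length, the 10 ligands differed widely in level. In WT, Ccl3 stood at 5642 ± 92.3 TPM (transcript abundance per length; SD, n = 3) and Ccl4 at 4538 ± 93.5, and these 2 genes held 79.5% ± 0.296 of the TPM of all 10. Cxcl2 followed at 722 ± 23.1, Ccl12 at 484 ± 28.8, Cxcl10 at 402 ± 10.9, Cxcl16 at 388 ± 20.9, Ccl2 at 298 ± 26.2, Ccl9 at 179 ± 9.28, Ccl6 at 149 ± 2.29 and Cxcl14 at 9.00 ± 0.958. In this order only Cxcl10 and Cxcl16 had library ranges that overlapped. In APP/PS1 the ranges of Ccl3 (5267 ± 151 TPM) and Ccl4 (5214 ± 54.4 TPM) overlapped, and Ccl6 moved up to place 3 at 919 ± 8.36 TPM. In the knockout, Ccl3 (4113 ± 124 TPM) and Ccl4 (3959 ± 97.1 TPM) again overlapped, Cxcl2 came next at 827 ± 30.1 TPM, followed by Ccl6 at 506 ± 5.55 TPM. Ccl6 made up 1.17% ± 0.0205, 6.67% ± 0.0332 and 4.69% ± 0.100 of the members' TPM in WT, APP/PS1 and the knockout. Cxcl14 was last in every group.

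Most of the ligands sit on chromosome 11, and their places in the genome are given here in GRCm38.p6 from RefSeq, the build that the submitters' processing notes also name. Ccl2 (chr11:82035577-82037452, + strand) and Ccl12 (chr11:82101845-82103399, + strand) lie in a run of CC ligand genes with Ccl7 and Ccl11 between them and Ccl8 just beyond. Ccl9 (chr11:83572917-83578636, - strand), Ccl6 (chr11:83587886-83593087, - strand), Ccl3 (chr11:83647843-83649378, - strand) and Ccl4 (chr11:83648624-83664683, + strand) form a second run. The annotated spans of Ccl3 and Ccl4 overlap on opposite strands, yet none of the 717 and 611 windows of 50 nt, the read length, in their longest transcripts occurs in a transcript of another gene. Cxcl16 (chr11:70454389-70459984, - strand) lies apart from both runs. Cxcl2 (chr5:90903899-90905938, + strand) and Cxcl10 (chr5:92346638-92348889, - strand) share chromosome 5, and Cxcl14 (chr13:56288643-56296811, - strand) stands alone on chromosome 13. In Cxcl16, 18.98% of windows also occur antisense in Zmynd15, in Cxcl10 3.85% antisense in Art3, and in Cxcl2 5.35% in its paralog Cxcl3. In Ccl9, 2.0% of windows occur in transcripts of other genes, 463 in number, with Ppp1r7 sharing the most. The span of Ccl6 overlaps the long non-coding RNA gene E230016K23Rik, which has no counts here, and 0 of the 1391 Ccl6 windows occur in a transcript of another gene. Zmynd15 had 159 to 237 counts a library against 4297 to 5052 for Cxcl16. Cxcl3 had 13 to 129 counts against 6134 to 8191 for Cxcl2.

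RefSeq promoter sequence was at hand for 7 of the 10 members (Ccl3, Ccl6, Ccl9, Ccl12, Cxcl2, Cxcl10 and Cxcl14). The 250 bases before the start are shown for all 7, so that Cxcl2 and Cxcl10, which did not pass the test in the knockout against APP/PS1, can be read beside the 5 that fell. The start used for Cxcl14 lies just inside its annotated span. Each is printed 5′ to 3′ on the gene's strand, and capitals mark letters that match an NF-kappaB pattern (GGGNNNNNCC) or an interferon response element (GAAANNGAAA) on either strand.
Ccl3, chr11:83649379-83649628, - strand: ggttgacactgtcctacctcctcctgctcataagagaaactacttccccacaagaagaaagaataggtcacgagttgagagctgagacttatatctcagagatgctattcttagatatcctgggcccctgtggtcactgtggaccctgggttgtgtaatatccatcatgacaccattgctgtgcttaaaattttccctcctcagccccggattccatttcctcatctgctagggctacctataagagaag
Ccl6, chr11:83593088-83593337, - strand: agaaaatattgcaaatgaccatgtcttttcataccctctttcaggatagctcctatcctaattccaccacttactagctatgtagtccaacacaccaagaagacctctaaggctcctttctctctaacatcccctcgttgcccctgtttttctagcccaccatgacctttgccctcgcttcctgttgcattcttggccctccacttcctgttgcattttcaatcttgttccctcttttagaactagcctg
Ccl9, chr11:83578637-83578886, - strand: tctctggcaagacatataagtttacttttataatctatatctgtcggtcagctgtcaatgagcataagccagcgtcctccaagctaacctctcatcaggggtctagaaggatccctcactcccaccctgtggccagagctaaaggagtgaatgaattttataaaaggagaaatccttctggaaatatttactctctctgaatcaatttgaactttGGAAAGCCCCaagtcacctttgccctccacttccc
Ccl12, chr11:82101595-82101844, + strand: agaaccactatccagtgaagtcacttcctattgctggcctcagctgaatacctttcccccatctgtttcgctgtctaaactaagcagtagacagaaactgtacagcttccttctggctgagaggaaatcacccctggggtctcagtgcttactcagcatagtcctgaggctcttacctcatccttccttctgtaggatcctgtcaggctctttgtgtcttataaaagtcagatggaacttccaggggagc
Cxcl2, chr5:90903649-90903898, + strand: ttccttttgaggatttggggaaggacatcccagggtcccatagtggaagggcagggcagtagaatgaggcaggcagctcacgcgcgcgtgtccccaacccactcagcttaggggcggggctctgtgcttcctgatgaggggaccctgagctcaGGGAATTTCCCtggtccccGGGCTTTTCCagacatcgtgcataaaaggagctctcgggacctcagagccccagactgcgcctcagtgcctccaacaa
Cxcl10, chr5:92348890-92349139, - strand: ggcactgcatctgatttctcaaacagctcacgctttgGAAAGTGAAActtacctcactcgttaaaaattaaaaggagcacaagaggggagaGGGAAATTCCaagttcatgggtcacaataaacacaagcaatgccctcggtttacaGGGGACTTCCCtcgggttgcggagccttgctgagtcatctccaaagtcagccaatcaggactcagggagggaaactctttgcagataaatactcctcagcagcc
Cxcl14, chr13:56296552-56296801, - strand: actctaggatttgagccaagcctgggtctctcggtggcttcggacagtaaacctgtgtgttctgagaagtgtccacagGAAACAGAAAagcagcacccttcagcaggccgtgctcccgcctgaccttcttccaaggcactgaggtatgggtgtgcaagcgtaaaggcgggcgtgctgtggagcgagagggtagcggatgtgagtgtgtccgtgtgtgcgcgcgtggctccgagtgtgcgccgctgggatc

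The NF-kappaB letters occurred in 3 of the 7 member promoters and in 45.8% of all 32851 promoters of the same length, so their presence alone sets a promoter little apart. In Cxcl2 they began at -97 (GGGAATTTCC), at -96 in an overlapping match on the other strand and at -78 (GGGCTTTTCC), counted from the start of the gene. Cxcl10 had them at -159 (GGGAAATTCC) and, in overlapping matches, at -104 and -103, and Ccl9 had a match at -35 on the other strand. The interferon element letters, which 3.0% of all promoters held, occurred in Cxcl10 at -213 (GAAAGTGAAA) and in Cxcl14 at -172 (GAAACAGAAA). AP-1 letters (TGANTCA, in 6.7% of promoters) occurred in Ccl9 at -53 and in Cxcl10 at -74. A TATA box (TATAAA, in 12.4% of promoters) occurred in Ccl9 and Ccl12. These are matches of letters, and no binding was measured.

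The first comparison asks what the amyloid model does to these ligands. In APP/PS1 against WT, 7 of the 10 were higher and 0 lower by edgeR's quasi-likelihood test at an adjusted p under 0.05, where 26.9% of all tested genes were higher, 32.0% lower and 59.0% differed in either direction. The median log2 change of the 10 was 0.34, and that of all tested genes -0.04. The counts moved with the scale, to 5 higher and 2 lower with offsets for GC content and transcript length and to 4 higher and 5 lower on TPM (limma), where the median of the 10 was -0.05 and that of all genes -0.39. With the replicate number as a block 9 were higher and 0 lower. Ccl6 had the greatest rise of the 10. Fewer cells of a type and less RNA per cell cannot be told apart in such bulk libraries.

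**Figure D1:**
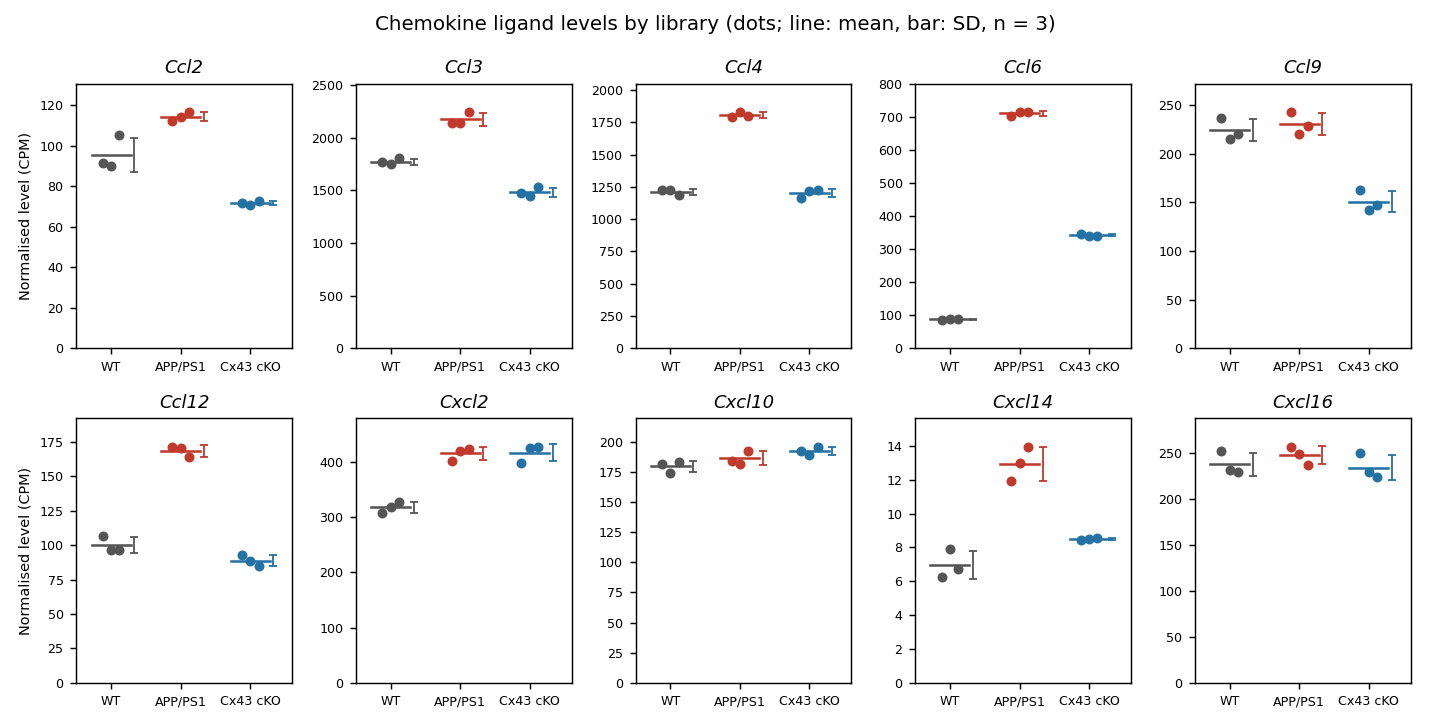
Normalised level (CPM, y axis from 0) of each ligand in each library, by genotype (x axis), with dots for libraries, a line for the mean and a bar for the SD (n = 3). Ccl6 sits at 86.6 to 89.4 CPM for WT, 702 to 715 for APP/PS1 and 340.0 to 345 for the knockout, while Cxcl2 stays near its APP/PS1 level in the knockout.

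Ccl6, a Ccr1 ligand of myeloid cells, stood at 86.6, 87.8 and 89.4 CPM in the WT libraries, at 702, 714 and 715 in APP/PS1 and at 345, 340.3 and 340.0 in the knockout. The 3 groups were widely separated, with APP/PS1 highest and the knockout between the others. Ccl6 rose 8.08-fold in APP/PS1 against WT (log2 change 3.01, SE 0.03, edgeR adjusted p = 9.83e-31). It was lower in the knockout than in APP/PS1 (log2 change -1.06, SE 0.03, edgeR adjusted p = 9.63e-22) and remained 3.89-fold above WT (edgeR adjusted p = 1.97e-26). The direction and call of all 3 comparisons held in all 21 alternatives, with log2 changes of 2.46 to 3.05, -1.06 to -0.63 and 1.75 to 1.98.

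Ccl9, which lies next to Ccl6 and shares its receptor Ccr1, behaved otherwise. Its libraries held 237, 216 and 221 CPM for WT, 243, 221 and 229 for APP/PS1 and 163, 143 and 147 for the knockout. The WT and APP/PS1 ranges overlapped, and every knockout library lay below both. Ccl9 did not pass the test in APP/PS1 against WT (log2 change 0.04, 95% interval -0.06 to 0.14, edgeR adjusted p = 0.529). It fell in the knockout against APP/PS1 (log2 change -0.61, SE 0.05, edgeR adjusted p = 1.24e-07) and was also below WT (log2 change -0.57, SE 0.05, edgeR adjusted p = 3.37e-07). The ratio of Ccl6 to Ccl9 counts within a library, which no scaling between libraries can move, was 0.392 ± 0.0238 in WT, 3.08 ± 0.179 in APP/PS1 and 2.27 ± 0.136 in the knockout (SD, n = 3). Each pair of groups was apart, with a two-sided exact permutation p of 0.1, the smallest that 3 against 3 libraries can give. Offsets for GC content and transcript length, which differ between genes, can still move such a ratio. With them Ccl6 and Ccl9 changed by 2.46 and 0.02 in APP/PS1 against WT. In the knockout against APP/PS1 they changed by -0.63 and -0.59, so the ratio difference between these 2 groups depended on the scale.

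Ccl3 and Ccl4, the abundant ligands also called macrophage inflammatory proteins, had their highest CPM in APP/PS1, but for Ccl3 the direction against WT turned on TPM (-0.10) and with the GC and length offsets (-0.21). Ccl4 stood at 1224, 1224 and 1183 CPM for WT, 1793, 1830.3 and 1797 for APP/PS1 and 1165, 1221 and 1222 for the knockout. The WT and knockout libraries overlapped, and all APP/PS1 libraries were above them. Ccl4 rose in APP/PS1 against WT (log2 change 0.58, SE 0.03, edgeR adjusted p = 3.18e-16) and fell in the knockout against APP/PS1 (log2 change -0.59, SE 0.03, edgeR adjusted p = 2.81e-16). Between the knockout and WT it did not pass (log2 change -0.01, 95% interval -0.06 to 0.04, edgeR adjusted p = 0.805). That call depended on the scale, as Ccl4 was lower in the knockout than in WT on library totals (-0.12, edgeR adjusted p = 0.000576), on log2(FPKM + 1) (-0.11, limma adjusted p = 0.00510), on TPM (-0.20, limma adjusted p = 6.30e-05) and with the offsets (-0.15, edgeR adjusted p = 6.06e-06).

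Ccl3 stood at 1767, 1751 and 1806 CPM for WT, 2137, 2141 and 2246 for APP/PS1 and 1479, 1445 and 1529 for the knockout. No 2 groups overlapped, and the knockout was lowest. Its log2 change was 0.29 in APP/PS1 against WT (SE 0.03, edgeR adjusted p = 8.00e-10), -0.55 in the knockout against APP/PS1 (SE 0.03, edgeR adjusted p = 2.31e-15) and -0.26 in the knockout against WT (SE 0.03, edgeR adjusted p = 1.46e-08). The ratio of Ccl3 to Ccl4 counts was 1.47 ± 0.0520 in WT, 1.20 ± 0.0414 in APP/PS1 and 1.23 ± 0.0456 in the knockout (SD, n = 3). WT was apart from both other groups (two-sided exact permutation p = 0.1, the smallest possible), and the APP/PS1 and knockout libraries overlapped (exact permutation p = 0.4).

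The monocyte attractants Ccl2 and Ccl12 also had their highest CPM in APP/PS1, though for Ccl2 the direction against WT turned on TPM (-0.13) and with the offsets (-0.30). Ccl12 stood at 107, 96.8 and 96.5 CPM for WT, 172, 170.4 and 164 for APP/PS1 and 92.9, 88.7 and 85.0 for the knockout. All APP/PS1 libraries lay above the rest, and the knockout libraries lay just below those of WT. Ccl12 rose in APP/PS1 against WT (log2 change 0.75, SE 0.04, edgeR adjusted p = 7.00e-15), fell in the knockout against APP/PS1 (log2 change -0.92, SE 0.04, edgeR adjusted p = 1.50e-16) and was lower than WT in the knockout (log2 change -0.17, SE 0.04, edgeR adjusted p = 0.00162).

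Ccl2 stood at 91.7, 90.004 and 105 CPM for WT, 112, 114 and 117 for APP/PS1 and 71.9, 70.7 and 72.9 for the knockout. Its groups did not overlap, and WT replicate 3 was closest to the APP/PS1 range. The log2 change of Ccl2 was 0.26 in APP/PS1 against WT (SE 0.05, edgeR adjusted p = 3.71e-05), -0.67 in the knockout against APP/PS1 (SE 0.05, edgeR adjusted p = 1.60e-11) and -0.41 in the knockout against WT (SE 0.05, edgeR adjusted p = 1.22e-07). Within a library the ratio of Ccl2 to Ccl12 counts was 0.961 ± 0.119 in WT, 0.679 ± 0.0305 in APP/PS1 and 0.810 ± 0.0427 in the knockout (SD, n = 3). Each pair of groups was apart (two-sided exact permutation p = 0.1, the smallest possible).

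Whether and how far the CC ligands rose in APP/PS1 depended on the scale, and short transcripts as a class were higher there. Ccl2, Ccl3, Ccl4, Ccl6 and Ccl12 have longest transcripts of 537 to 1440 nt and fall in the shortest of 10 length bins. That bin had median log2 changes of 0.46 for APP/PS1 against WT, -0.41 for the knockout against APP/PS1 and 0.12 for the knockout against WT. With offsets for GC content and transcript length, the APP/PS1 change from WT turned to -0.30 for Ccl2 (edgeR adjusted p = 1.17e-05) and to -0.21 for Ccl3 (edgeR adjusted p = 7.25e-09). On the TPM scale they were -0.13 and -0.10 (limma adjusted p = 0.0306 and 0.00853). With the offsets Ccl4 and Ccl12 kept their direction and call at 0.07 and 0.15 (edgeR adjusted p = 0.0138 and 0.000187), and Ccl6 stayed at 2.46 (edgeR adjusted p = 7.97e-37). The offsets also reduced the differences between the knockout and APP/PS1, to -0.24 for Ccl2, -0.17 for Ccl3, -0.22 for Ccl4, -0.63 for Ccl6 and -0.44 for Ccl12, all still past the threshold. Whether transcript length itself plays a part in these changes was not tested.

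**Figure D2:**
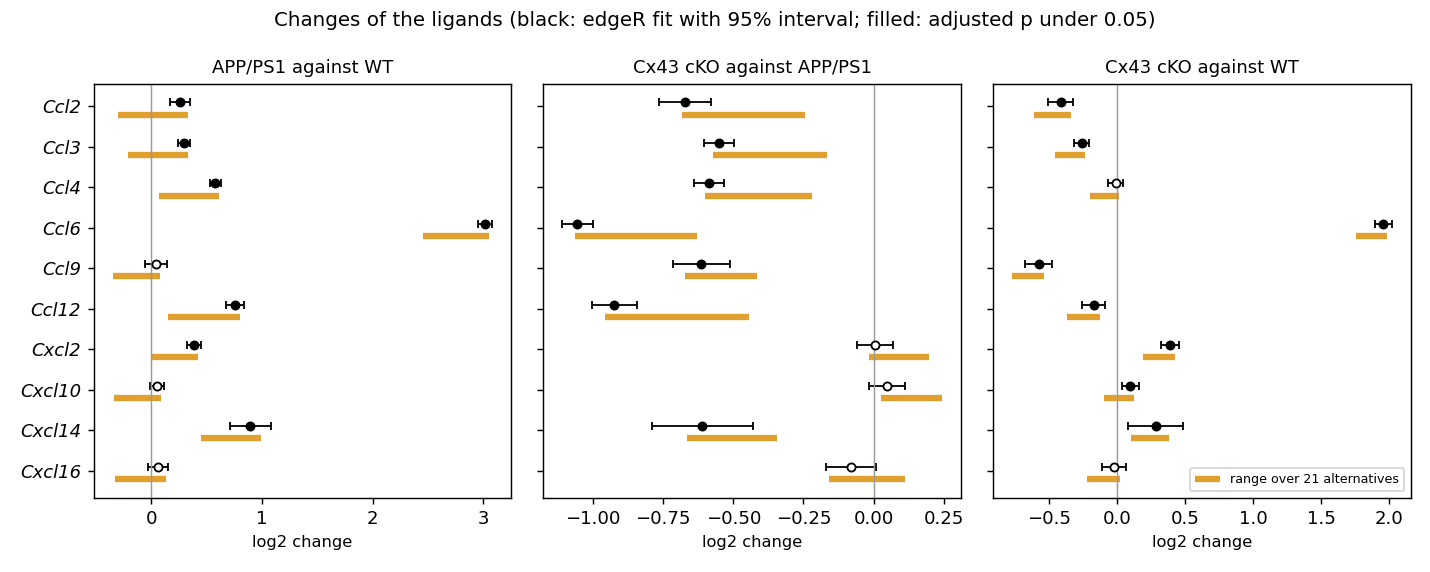
Log2 change (x axis) of each ligand (y axis) in the 3 comparisons, with black points for the edgeR estimate, bars for its 95% interval and filled points for an adjusted p under 0.05. Orange bars span the estimates of 21 alternative analyses, and for Ccl2 and Ccl3 in APP/PS1 against WT they reach from below 0 (-0.30 and -0.21) to 0.33.

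The CXC ligands did not all move alike. Cxcl2, a neutrophil attractant, stood at 306, 318 and 327 CPM for WT, 402, 419.9 and 423 for APP/PS1 and 398, 424 and 427 for the knockout. WT lay below both APP/PS1-bearing groups, which overlapped with each other. Cxcl2 rose in APP/PS1 against WT (log2 change 0.39, SE 0.03, edgeR adjusted p = 1.04e-10), though not on the TPM scale (-0.0041, limma adjusted p = 0.915). It was higher in the knockout than in WT (log2 change 0.39, SE 0.03, edgeR adjusted p = 1.43e-10). Between the knockout and APP/PS1 it did not pass (log2 change 0.00, 95% interval -0.06 to 0.07, edgeR adjusted p = 0.921), while on TPM it was higher in the knockout (0.20, limma adjusted p = 0.000361). The ratio of Ccl4 to Cxcl2 counts was 3.82 ± 0.192 in WT, 4.36 ± 0.106 in APP/PS1 and 2.89 ± 0.0335 in the knockout (SD, n = 3), with every pair of groups apart (two-sided exact permutation p = 0.1, the smallest possible). Ccl4 lies in a shorter length bin than Cxcl2. With the GC and length offsets Ccl4 rose less than Cxcl2 in APP/PS1 against WT (log2 changes 0.07 and 0.31), the reverse of the count ratio. In the knockout against APP/PS1 the offsets gave -0.22 and 0.05. The 4 ratios were chosen after the levels were seen, and no adjustment over them can pass the threshold.

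**Figure D3:**
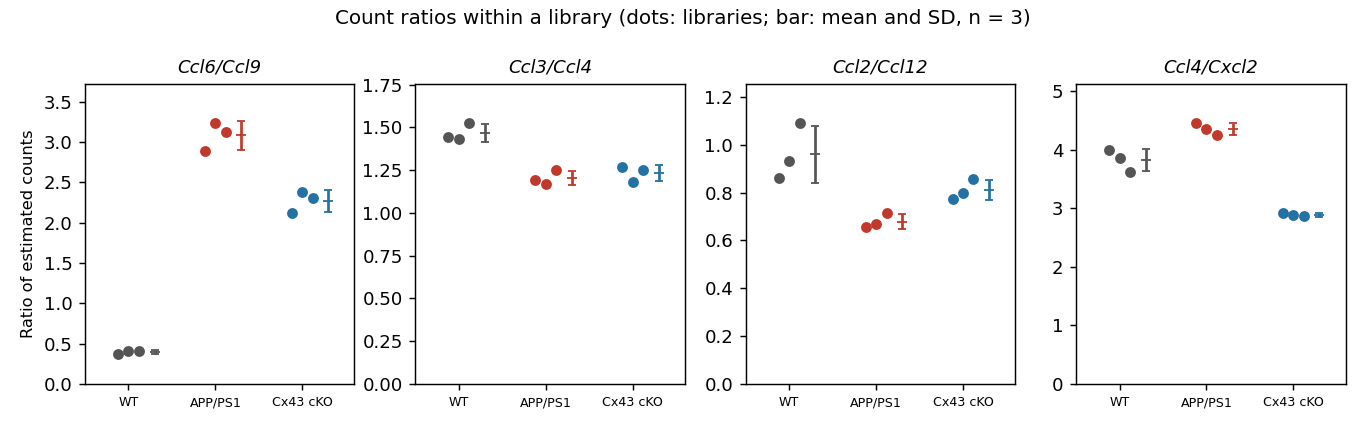
Ratio of the estimated counts of 2 ligands within each library (y axis from 0) for 4 gene pairs, by genotype (x axis), with dots for libraries and bars for the mean and SD (n = 3). Ccl6/Ccl9 rises from 0.392 in WT to 3.08 in APP/PS1, and Ccl4/Cxcl2 is lowest in the knockout at 2.89.

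Cxcl10, the interferon-induced Cxcr3 ligand, stood at 181, 174 and 183 CPM for WT, 184, 182 and 193 for APP/PS1 and 192, 189 and 196 for the knockout. The APP/PS1 libraries overlapped with those of both other groups. Cxcl10 did not pass in APP/PS1 against WT (log2 change 0.05, 95% interval -0.01 to 0.12, edgeR adjusted p = 0.176) or in the knockout against APP/PS1 (0.05, 95% interval -0.02 to 0.11, edgeR adjusted p = 0.226). In the latter it was higher on TPM (0.24, limma adjusted p = 3.89e-05), on log2(FPKM + 1) (0.08, limma adjusted p = 0.0461) and with library totals (0.08, edgeR adjusted p = 0.0459). When the replicate number was fitted as a block it passed in APP/PS1 against WT (0.05, edgeR adjusted p = 0.0333). It was slightly higher in the knockout than in WT (log2 change 0.10, SE 0.03, edgeR adjusted p = 0.0133). That call ended without WT replicate 2 (edgeR adjusted p = 0.0847) or knockout replicate 3 (edgeR adjusted p = 0.0652), and the direction turned on library totals (-0.0072), on FPKM (-0.0068 with a pseudocount of 1 and -0.0069 with 0.1) and on TPM (-0.097).

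Cxcl14 was the least abundant ligand, with 125 to 259 counts a library. It stood at 6.24, 7.88 and 6.76 CPM for WT, 11.9, 12.97 and 14.0 for APP/PS1 and 8.42, 8.47 and 8.55 for the knockout. The 3 groups did not overlap, with the knockout between the others. Cxcl14 rose in APP/PS1 against WT (log2 change 0.89, SE 0.09, edgeR adjusted p = 7.10e-09) and fell in the knockout against APP/PS1 (log2 change -0.61, SE 0.09, edgeR adjusted p = 3.27e-06), in all 21 alternatives. Its excess over WT in the knockout (log2 change 0.28, SE 0.10, edgeR adjusted p = 0.0231) was lost in 8 of the 21. Among these, leaving out WT replicate 1, WT replicate 3 or knockout replicate 3 gave edgeR adjusted p-values of 0.123, 0.0736 and 0.0573. Summed CPM of 9 measured neuronal markers was 71.5 to 77.2 for WT, 76.9 to 85.2 for APP/PS1 and 56.2 to 59.3 for the knockout, and that of 10 astrocyte markers 553 to 567, 722 to 744 and 566 to 581. None of these markers was at 0 in every library of a group, and their part in the Cxcl14 level was not tested.

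Cxcl16, the transmembrane ligand, stood at 252, 232 and 229.8 CPM for WT, 257, 249 and 237 for APP/PS1 and 250.3, 229 and 224 for the knockout. All 3 groups overlapped. It passed in none of the comparisons, with log2 changes of 0.06 in APP/PS1 against WT (95% interval -0.03 to 0.15, edgeR adjusted p = 0.272), -0.08 in the knockout against APP/PS1 (-0.17 to 0.01, edgeR adjusted p = 0.144) and -0.02 in the knockout against WT (-0.11 to 0.07, edgeR adjusted p = 0.732). When the replicate number was fitted as a block it passed in APP/PS1 against WT (0.06, edgeR adjusted p = 0.0113). With the block it was also lower in the knockout against APP/PS1 (-0.08, edgeR adjusted p = 0.000954). It was lower in the knockout against APP/PS1 with the offsets (-0.16, edgeR adjusted p = 0.0291) and without knockout replicate 1 (-0.13, edgeR adjusted p = 0.0100), and against WT on TPM (-0.22, limma adjusted p = 0.00282), on log2(FPKM + 1) (-0.13, limma adjusted p = 0.0493) and with library totals (-0.13, edgeR adjusted p = 0.0304). Of the proteases that shed it from the membrane, Adam10 was 263 ± 9.24, 284 ± 6.78 and 273 ± 4.83 CPM and Adam17 was 181 ± 1.62, 168 ± 0.506 and 179.9 ± 3.32 CPM in WT, APP/PS1 and the knockout (SD, n = 3). Against WT in APP/PS1, Adam10 was higher (log2 change 0.11, edgeR adjusted p = 0.00441) and Adam17 lower (-0.11, edgeR adjusted p = 0.00298). These calls moved with the scale, as 0 of these 2 proteases were higher and 1 lower on library totals and on FPKM, 0 higher and 2 lower on TPM, and 1 higher and 0 lower with the offsets.

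The second comparison asks what microglial loss of Cx43 does within the amyloid model. In the knockout against APP/PS1, 7 of the 10 ligands were lower and 0 higher by edgeR's test, where 27.7% of all tested genes were lower, 27.3% higher and 55.0% differed in either direction. The 7 were Ccl2, Ccl3, Ccl4, Ccl6, Ccl9, Ccl12 and Cxcl14, that is, all 6 CC members and 1 of the 4 CXC members. All 7 were lower and past the threshold in all 21 alternatives, and on TPM 2 others, Cxcl2 and Cxcl10, were higher. The median log2 change of the 10 was -0.60, and that of all tested genes -0.01. The 2 comparisons share the APP/PS1 libraries, so a high APP/PS1 value enters both.

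In the knockout against WT the ligands split, with 4 higher (Ccl6, Cxcl2, Cxcl10, Cxcl14) and 4 lower (Ccl2, Ccl3, Ccl9, Ccl12), where 24.7% and 23.0% of all tested genes were higher and lower and 47.7% differed in either direction. The median log2 change was -0.02 for the 10 and -0.01 for all tested genes. Of these 8 calls, 6 held in all 21 alternatives, the exceptions being Cxcl10 and Cxcl14. The even split depended on the scale, with 2 higher and 6 lower on library totals and on log2(FPKM + 1), and 2 higher and 7 lower on TPM (median log2 change -0.21). Summed over the 10 members, CPM was 4235 ± 33.2 in WT, 6068 ± 61.2 in APP/PS1 and 4192 ± 51.2 in the knockout (SD, n = 3). The knockout sum overlapped with WT although 8 of its parts differed. Summed TPM, in which counts are divided by transcript length, was 12811 ± 93.2, 13790.2 ± 136 and 10799 ± 156, so on that scale the knockout sum was below WT.

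Markers of several cell types also differed between the groups. In the knockout against APP/PS1 all 12 neutrophil and all 8 monocyte markers were higher by edgeR's test. So were 5 of 6 B cell markers, and erythroid markers split into 3 higher and 3 lower. Lower were 9 of 10 astrocyte, 8 of 10 vessel and 6 of 9 neuronal markers. Of 9 T and NK cell markers 7 were lower and 1 higher, and of 10 microglial markers 6 and 2. Of 8 oligodendrocyte markers 3 were lower. Of all tested genes 27.3% were higher and 27.7% lower. Of 8 border macrophage markers 7 were lower, their sum going from 700.3 to 707 CPM in APP/PS1 to 594 to 605 in the knockout, with 844 to 859 in WT. Of 19 early-response genes, which dissociation is known to induce, 17 were lower in APP/PS1 than in WT, where 32.0% of all tested genes were lower. Their sum was 29890.3 to 31480.2 CPM for WT, 24454 to 25728 for APP/PS1 and 25471 to 26716 for the knockout. Both APP/PS1-bearing groups thus had a lower early-response sum than WT. No border macrophage marker or early-response gene was at 0 in every library of a group. The part of these cells and of dissociation in the ligand levels was not tested.

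Other chemokine ligands were counted in the same way. Of 28 listed, 25 were in the table and 17 were tested. In APP/PS1 against WT 9 were higher, 3 lower and 5 did not pass, and in the knockout against APP/PS1 0 were higher, 12 lower and 5 did not pass, with median log2 changes of 0.26 and -0.42. The counts in APP/PS1 against WT became 4 higher and 5 lower with the GC and length offsets and 5 higher and 6 lower of 16 on TPM, while those in the knockout against APP/PS1 became 2 higher and 10 lower, and 3 higher and 8 lower. In the knockout against WT 1 was higher and 8 were lower (median log2 change -0.38). Of all tested genes 26.9%, 27.3% and 24.7% were higher and 32.0%, 27.7% and 23.0% lower in the 3 comparisons, in the order given here.

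Ccl7 and Ccl8, which lie in the run that holds Ccl2 and Ccl12, both peaked in APP/PS1. Ccl7 was 82.3 ± 4.89 CPM for WT, 151 ± 7.13 for APP/PS1 and 63.2 ± 0.510 for the knockout (SD, n = 3), with log2 changes of 0.88 in APP/PS1 against WT (edgeR adjusted p = 5.29e-16) and -1.26 in the knockout against APP/PS1 (edgeR adjusted p = 5.22e-19). Ccl8 was 14.8 ± 0.660, 30.6 ± 1.69 and 9.21 ± 0.460 CPM, with log2 changes of 1.05 (edgeR adjusted p = 1.26e-13) and -1.73 (edgeR adjusted p = 2.53e-17). Both kept direction and call in all 21 alternatives, so all 4 tested genes of this run (Ccl2, Ccl7, Ccl12 and Ccl8) were lower in the knockout than in APP/PS1. Ccl11, in the same run, had at most 32 counts and was not tested.

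Of the remaining ligands, Cxcl9, an interferon-induced Cxcr3 ligand like Cxcl10, was 1.94 ± 0.0193, 4.49 ± 0.627 and 3.29 ± 0.361 CPM in WT, APP/PS1 and the knockout. Its level in APP/PS1 exceeded that in WT (log2 change 1.21, edgeR adjusted p = 3.01e-07). Xcl1, made by T and NK cells, also rose (log2 change 1.62, edgeR adjusted p = 2.21e-06), with 0.839 ± 0.173 CPM in WT and 2.597 ± 0.568 in APP/PS1. Summed CPM of 10 T and NK cell markers was 46.1 to 47.2 for WT, 73.50 to 73.57 for APP/PS1 and 53.4 to 56.6 for the knockout. None of them was at 0 in every library of a group. Of 9 tested markers, 7 were higher in APP/PS1 than in WT, and their part in Xcl1 was not tested. Pf4, a platelet chemokine that border macrophages also express, and Ppbp, made by platelet precursors, were lower in the knockout than in APP/PS1 (log2 changes -1.39 and -3.33, edgeR adjusted p = 6.25e-15 and 2.47e-15). Cxcl12, a stromal and endothelial ligand, was lower in the knockout than in WT at 67.5 ± 3.08 against 125 ± 2.19 CPM (log2 change -0.88, edgeR adjusted p = 4.91e-16). Summed CPM of 10 vessel markers was 1212 to 1225 for WT, 1131 to 1148 for APP/PS1 and 843 to 868 for the knockout. No vessel marker was at 0 in every library of a group, and their part in Cxcl12 was not tested.

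**Figure D4:**
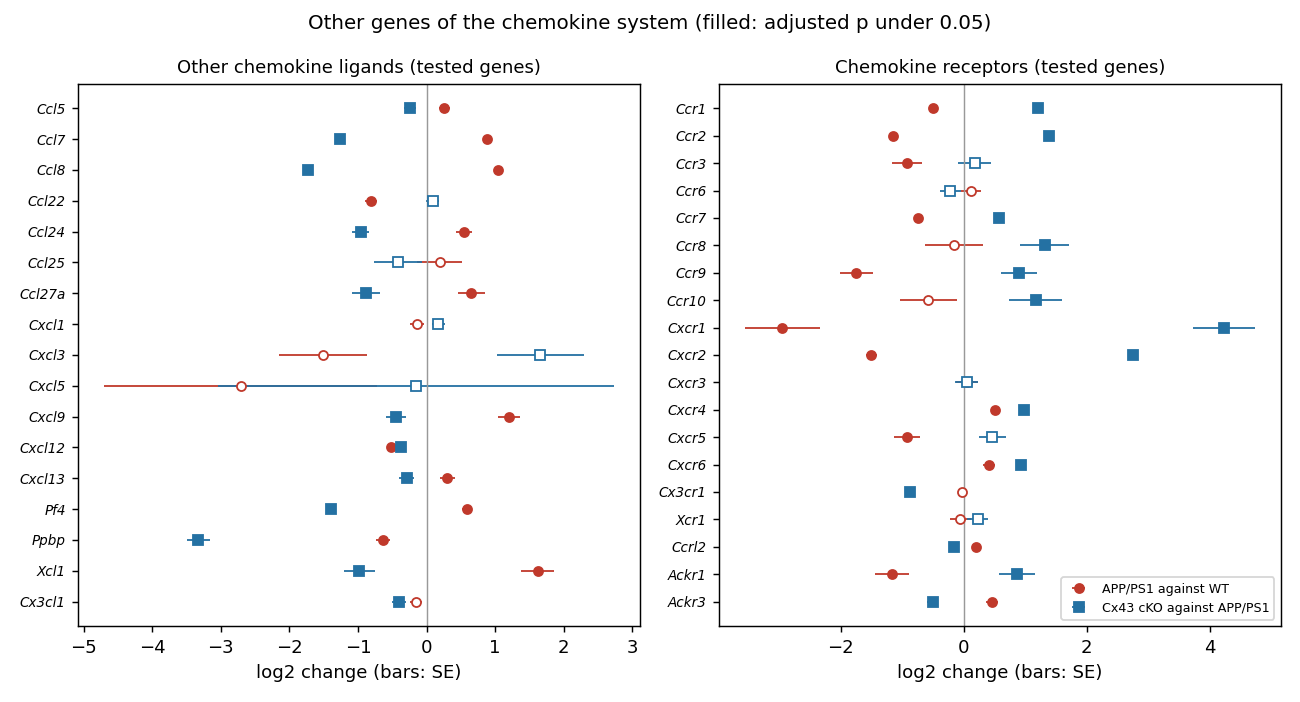
Log2 change with SE (x axis) of the 17 tested other ligands and 19 tested receptors (y axis), in APP/PS1 against WT (red circles) and the knockout against APP/PS1 (blue squares), filled where the adjusted p is under 0.05. In the second comparison 12 ligands lie below 0 past the threshold, while 11 receptors lie above it.

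Among the receptors, lower calls outnumbered higher ones in APP/PS1 and higher ones lower in the knockout against APP/PS1. Of 22 described here, 19 were tested. In APP/PS1 against WT 4 were higher and 9 lower, and in the knockout against APP/PS1 11 were higher and 3 lower, with median log2 changes of -0.50 and 0.87. Of all tested genes 26.9% were higher and 32.0% lower in the first comparison, and 27.3% and 27.7% in the second. Among the 14 receptors with at least 10 counts in every library, 4 were higher and 6 lower, and 6 higher and 3 lower, with medians of -0.04 and 0.35. Cxcr2, the neutrophil receptor for Cxcl2, was 22.5 ± 1.26, 7.94 ± 1.31 and 53.6 ± 1.56 CPM in WT, APP/PS1 and the knockout (SD, n = 3), with log2 changes of -1.50 (edgeR adjusted p = 2.87e-14) and 2.75 (edgeR adjusted p = 2.99e-21). Ccr2, the monocyte receptor for Ccl2 and Ccl12, was 35.4 ± 1.502, 16.1 ± 1.98 and 42.0 ± 2.05 CPM, with log2 changes of -1.14 (edgeR adjusted p = 1.79e-13) and 1.39 (edgeR adjusted p = 2.32e-15). Both are themselves members of the neutrophil and monocyte marker lists, whose sums moved with them.

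Ccr1, the receptor for Ccl3, Ccl6 and Ccl9, rose in the knockout against APP/PS1, from 30.1 ± 1.07 to 69.7 ± 1.95 CPM (log2 change 1.21, edgeR adjusted p = 6.62e-18), as did Cxcr4, the Cxcl12 receptor, from 62.0 ± 2.35 to 123 ± 2.69 (0.99, edgeR adjusted p = 1.61e-17). In the knockout against WT, Cxcr6, the Cxcl16 receptor, was higher (16.5 ± 0.736 against 6.48 ± 0.260 CPM, log2 change 1.35, edgeR adjusted p = 2.55e-13). Cx3cr1, the microglial receptor whose promoter drives Cre in the knockout group, was 2260 ± 24.2 CPM for WT, 2231 ± 13.6 for APP/PS1 and 1214 ± 25.0 for the knockout. It was lower in the knockout than in WT (log2 change -0.90, edgeR adjusted p = 9.34e-21). Neither control genotype is described as carrying Cx3cr1-CreER, and the part of that construct in the Cx3cr1 level was not tested. All of these receptor calls held in the 21 alternatives.

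Chemokine genes are known targets of NF-kappaB and interferon signalling. Of 20 NF-kappaB pathway genes, 3 were higher and 14 lower in APP/PS1 against WT (median log2 change -0.20). In the knockout against APP/PS1 7 were higher, 3 lower and 10 did not pass (median 0.07). Of all tested genes 26.9% were higher and 32.0% lower in the former. In the latter 27.3% were higher, 27.7% lower and 55.0% differed in either direction, so the NF-kappaB list was not called more often there than all genes. Il1b, the cytokine of that list with the greatest change in APP/PS1, was 933 ± 9.47, 2007 ± 28.03 and 1351 ± 26.7 CPM in WT, APP/PS1 and the knockout, with log2 changes of 1.11 (edgeR adjusted p = 1.02e-22) and -0.57 (edgeR adjusted p = 1.75e-16). With the offsets these became 0.60 and -0.19, and 4 pathway genes were higher and 7 lower in APP/PS1. Of 19 tested interferon-stimulated genes, 12 were higher and 4 lower in APP/PS1 against WT, 10 higher and 3 lower in the knockout against APP/PS1, and 16 higher and 1 lower in the knockout against WT. Their median log2 changes were 0.27, 0.22 and 0.50. In the knockout against WT 24.7% of all tested genes were higher and 23.0% lower. On TPM the interferon counts in APP/PS1 against WT became 3 higher and 9 lower, and the NF-kappaB genes became 19 higher and 1 lower in the knockout against APP/PS1. Bst2, which tethers budding virus particles, rose in APP/PS1 (log2 change 1.18, edgeR adjusted p = 3.82e-19) and fell in the knockout against APP/PS1 (-0.90, edgeR adjusted p = 1.14e-16). Rsad2, the antiviral protein viperin, rose in the knockout against APP/PS1 (1.75, edgeR adjusted p = 6.39e-20) and was 25.4 ± 1.89, 18.6 ± 0.383 and 62.3 ± 0.642 CPM in WT, APP/PS1 and the knockout.

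Across all 9 libraries some ligands tracked each other and others did not, and these correlations describe 3 group levels more than 9 independent points. Pearson's r of log2(CPM + 0.5) was 0.974 for Ccl4 and Ccl12 and 0.972 for Ccl2 and Ccl3. It was 0.915 for Ccl6 and Cxcl2 and -0.111 for the neighbours Ccl6 and Ccl9. Among 9154 genes with a mean of at least 10 CPM, those most like Ccl6 were Anxa3, Itm2b and Eef1a1 (r of 0.9996, 0.9990 and 0.9989), and 352 genes reached an r of at least 0.95. Most like Ccl4 were B230118H07Rik, Rnase4 and Selenop (0.9949, 0.9945 and 0.9942), with 499 such genes, and Glmp and Cd72 were among the genes most like Cxcl2 (0.9976 and 0.9949), with 215.

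The remaining members had other genes closest to them. Ccl12 was most like Snx5, Dynll1 and Rps27 (r of 0.9976, 0.9951 and 0.9945), Ccl3 like Mgp, Gng11 and Fgf1 (0.9967, 0.9952 and 0.9939), and Ccl2 like Klhdc2, Mal and Ednrb (0.9843, 0.9833 and 0.9829). Ccl9 was most like Slco1a4, Zfp36l1 and Ptgds (0.9941, 0.9889 and 0.9869), and Cxcl14 like Atp2b3, Commd9 and Nedd8 (0.9883, 0.9859 and 0.9853). Cxcl10 and Cxcl16 had 0 genes at an r of 0.95, and their closest were Nek7 (0.925) and Dennd6a (0.9093).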

How the data were processed

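Per the labels, libraries of poly-A RNA were read on DNBSEQ from a single end (50 nt). The submitters' processing notes name HISAT, Bowtie2, DESeq2 and GRCm38.p6. The counting program and strand setting are not given in the sources used here. Per the file headers, the authors deposited for each library an estimated count (not scaled between libraries), an FPKM, a TPM and also a normalised count, which is a signal equal to the rounded-up estimated count times 1 factor per library.

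Groups follow the labelled genotypes. Estimated counts were rounded and tested with edgeR 4.0.16 (R 4.3.3; TMM, filterByExpr, robust quasi-likelihood, all 9 libraries in 1 fit), with Benjamini-Hochberg adjustment over 14696 genes and a threshold of 0.05. Error intervals of 95% are 1.96 SE wide on each side. The biological coefficient of variation was 3.14%. The 21 alternatives were DESeq2 size factors, library totals, the DESeq2 1.42.0 Wald test, 2 other count filters (at least 10 counts everywhere, or none), a fit restricted to the compared groups, the replicate block, limma 3.58.1 on log2 FPKM (pseudocount 1 or 0.1) and TPM (pseudocount 1) for genes at 1 FPKM or more, offsets by 10 bins each of GC content and GENCODE M21 transcript length with and without the block, and leaving out each library. The fits were tested on simulated data.

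Same-numbered libraries deviated together in APP/PS1 and WT (r of 0.142 to 0.277 over 3 pairs) and in knockout and WT (0.104 to 0.289). The main fit did not pair them, so its p-values take no account of this. Pairing by replicate number, chosen from the data alone, entered only the alternatives with the replicate block. The blocked value stands beside a result where it changes the call.

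Members and lists were chosen with earlier results of these data known. All 10 members are named. From each list up to 4 genes past the threshold with the largest change and at least 1 CPM could be named, together with the 3 genes most like each member, Gja1 and Ddx3y. Genes that overlap, neighbour or share sequence with a member are named for that reason. Promoters came from RefSeq (GRCm38.p6). A receptor of the list and a gene close to Cxcl2 are not reported here, and the receptor counts leave that receptor out.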

Additional observations from a re-analysis of the deposited data

How the results depend on the processing

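Of 210 member values over the 21 alternatives in each comparison, 184 kept direction and call in APP/PS1 against WT, 195 in the knockout against APP/PS1 and 180 in the knockout against WT. No count of all genes past the threshold in either direction moved by over 1.5 times. Counts in 1 direction did. Among them, genes higher in APP/PS1 against WT went from 3960 to 1607 on TPM, genes higher in the knockout against APP/PS1 from 4009 to 6532 on TPM, and genes higher in the knockout against WT from 3635 to 1684 on TPM, 2303 on log2(FPKM + 1) and 2290 on log2(FPKM + 0.1). Members higher in APP/PS1 against WT went from 7 to 4 and lower from 0 to 5 on TPM, and members in the knockout against WT from 4 higher and 4 lower to 2 and 7 on TPM, 2 and 6 on library totals and log2(FPKM + 1), and 2 and 5 on log2(FPKM + 0.1). Without knockout replicate 3, 2 members were higher there.

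In APP/PS1 against WT, library totals gave log2 changes of -0.098 for Ccl9, -0.085 for Cxcl10 and -0.078 for Cxcl16, log2(FPKM + 1) gave -0.097, -0.085 and -0.077, and log2(FPKM + 0.1) gave -0.098, -0.085 and -0.078. TPM gave -0.13 for Ccl2, -0.10 for Ccl3, -0.35 for Ccl9, -0.0041 for Cxcl2, -0.34 for Cxcl10, -0.33 for Cxcl16 and -0.14 for Gja1. The GC and length offsets gave -0.30 for Ccl2, -0.21 for Ccl3 and 0.13 for Cx3cr1, and with the replicate block -0.30, -0.21 and 0.13. Cx3cr1 was 0.0017 with DESeq2 size factors, 0.0017 with the DESeq2 test and 0.017 in a fit of only the groups compared. Leaving out 1 library gave -0.0033 to 0.081 for Ccl9.

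In the knockout against APP/PS1, TPM gave 0.11 for Cxcl16, and leaving out 1 library gave -0.017 to 0.036 for Cxcl2. In the knockout against WT, DESeq2 size factors and the DESeq2 test each gave 0.015 for Ccl4 and 0.0036 for Cxcl16. Cxcl10 was -0.0072 on library totals, -0.0068 on log2(FPKM + 1), -0.0069 on log2(FPKM + 0.1) and -0.10 on TPM. Leaving out 1 library gave -0.025 to 0.014 for Ccl4 and -0.070 to 0.023 for Cxcl16. Apart from the shift of all genes given next, the cause of these turns was not tested.

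The median log2 change of all genes moved from -0.04, -0.01 and -0.01 in the 3 comparisons to -0.17, 0.02 and -0.12 on library totals and -0.39, 0.18 and -0.18 on TPM. The share of calls that were higher moved from 45.7% to 29.5% (library totals), 30.8% (either FPKM), 15.5% (TPM) and 58.2% (offsets) in APP/PS1 against WT, from 49.6% to 75.9% (TPM) and 39.1% (offsets) in the knockout against APP/PS1, and from 51.9% to 30.4% (library totals), 32.8% (either FPKM) and 20.3% (TPM) in the knockout against WT.

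With the replicate block 9319, 8851 and 7934 genes passed, against 8670, 8085 and 7010 without it. In the knockout against APP/PS1 (r of 0.0549 to 0.234 between same numbers) the block gave 8 members in place of 7. It added Cxcl16 (log2 change -0.08, edgeR adjusted p = 0.000954). NF-kappaB genes higher in that comparison went from 7 to 12. In 18 of 18 comparisons of a library with another group it correlated best with its own number. The block changed no call of the 10 members in the knockout against WT, where the other ligands went from 1 higher and 8 lower to 2 and 9, NF-kappaB genes from 5 and 8 to 5 and 11 and receptors from 7 and 4 to 8 and 4. At 125 to 259 counts a library, Cxcl14 is the ligand whose depth limits precision most.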
